A study of Mus musculus with 12 samples.

Results

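The genes described here are 9 glycosyltransferase genes, *Sec1*, *Fut1*, *Fut2*, *Fut4*, *Fut8*, *Fut9*, *Fut10*, *B3gnt5* and *B3gnt7*, of the 55141 genes in the count table. They were matched by gene symbol and were chosen from earlier results of this same comparison, so their fold changes and calls are given as a description, without p-values. All libraries came from gastruloids, aggregates of mouse embryonic stem cells of 129/SVEV background that were given a pulse of the Wnt agonist CHIR99021 and collected at 120 h after seeding. Gastruloids were embedded in dextran hydrogel at 72 h or 96 h, at 1.0 mM or 1.5 mM, which gave 4 groups of 3 libraries and 12 in all. Every gastruloid was freed from its gel with dextranase before lysis, each library pooled many gastruloids, and libraries without a gel were not analysed here. The data thus address how the time of embedding and the concentration of the gel bear on the expression of these genes. Since all gastruloids were collected at 120 h, those embedded at 72 h also spent longer in gel. The time of embedding and the time spent in gel cannot be told apart.

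Fucosyltransferases transfer fucose from the donor GDP-fucose to glycans on proteins and lipids. *Fut1*, *Fut2* and *Sec1* form 1 family, whose enzymes make the H antigen on terminal galactose, while *Fut4* and *Fut9* encode enzymes that build the Lewis X structure, a surface antigen long used to mark mouse pluripotent cells. *Fut8* adds the core fucose of N-glycans, and *Fut10* is classed with the *Fut4* family by sequence. *B3gnt5* starts the lacto-series glycolipids and *B3gnt7* lengthens lactosamine chains, the chains on which such fucose is placed.

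Reads of *Sec1* and *Fut2* can be hard to tell apart, and the sequence shows where. *Sec1* (ENSMUSG00000040364) lies on the minus strand of chr7:45677686-45694402 in mm10, and *Fut2* (ENSMUSG00000055978) on the same strand at chr7:45648591-45666394. Their coding sequences in the GENCODE annotation were identical at 83.3% of 1007 aligned bases, against 66.2% for *Sec1* and *Fut1*, and 67.2% for *Fut1* and *Fut2*. The longest identical run, of 180 coding bases, is printed with 30 bases on each side because reads of 75 bases that fall inside it fit both genes. Capitals mark the 6 bases that differ. Both stretches are exonic and coding, *Sec1* at chr7:45678969-45679208 and *Fut2* at chr7:45650766-45651005, and both are written on the coding strand.
Sec1: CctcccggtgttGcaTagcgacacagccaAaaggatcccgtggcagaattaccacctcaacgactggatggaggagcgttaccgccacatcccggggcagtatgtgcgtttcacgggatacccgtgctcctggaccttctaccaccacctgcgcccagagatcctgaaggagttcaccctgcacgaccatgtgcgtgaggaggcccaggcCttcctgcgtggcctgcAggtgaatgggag
Fut2: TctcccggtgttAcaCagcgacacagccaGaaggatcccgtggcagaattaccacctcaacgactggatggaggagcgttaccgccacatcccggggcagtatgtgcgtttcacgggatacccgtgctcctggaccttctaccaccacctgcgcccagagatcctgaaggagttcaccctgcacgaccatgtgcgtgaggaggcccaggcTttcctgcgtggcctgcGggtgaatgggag
Of the 2396 distinct windows of 75 bases in the *Sec1* transcript, 109 also occur in *Fut2* on the same strand. A further 375 windows occur in *Ntn5*, a netrin gene on the plus strand whose last exon covers the first exon of *Sec1*. *Ntn5* and *Sec1* share 519 exonic bases, 21% of those of *Sec1*. *Fut1*, *Fut4*, *Fut9*, *Fut10* and *B3gnt5* shared no such window with any other annotated transcript. In *B3gnt7* 9.02% of windows were shared, all with *Gm28626* on the opposite strand, which had at most 1 count in any library. In *Fut8* 2.03% were shared with other genes.

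The 12 libraries held between 23011791 and 27609422 counts, of which a small share was mitochondrial. That share was 1.68% to 2.6% at 72 h and 2.37% to 2.89% at 96 h in 1.0 mM gels, and 1.94% to 2.15% and 2.46% to 3.02% in 1.5 mM gels, so that the ranges overlapped at 1.0 mM, and at 1.5 mM all libraries of 96 h were above those of 72 h. Its part in the differences with embedding time was not tested. No library stood apart in depth, and no pair of replicates agreed within sampling noise. Of 50 markers of the tissues a gastruloid holds, in 8 lists, none was at 0 in all libraries of a group. A single read meets that bar. *Olig2* had 1 count over the 3 libraries of each group embedded at 72 h, and *Msgn1* had 1 to 4 per group. Because each library is a pool of whole gastruloids, fewer cells of a type and less RNA per cell cannot be told apart. Levels are given as CPM, the share of a gene in the counts of a library on a scale set by TMM, or as FPKM where genes are compared with each other, since FPKM is scaled to transcript length.

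On the FPKM scale the 9 genes spanned a wide range. *Fut8* had the highest median level over the 12 libraries, 13.8 FPKM, followed by *B3gnt5* with 12.4 FPKM. These neighbours in the order did not separate, since *Fut8* was above *B3gnt5* in 6 of 12 libraries. *Fut10* had a median of 3.45 FPKM and *B3gnt7* of 3.36 FPKM, and *Fut10* was the higher of the pair in 6 libraries. *Fut4* (1.22 FPKM) and *Sec1* (1.21 FPKM) also changed places, *Fut4* being higher in 6 libraries. *Fut9* had a median of 0.118 FPKM, *Fut1* of 0.0369 FPKM and *Fut2* of 0.0217 FPKM. *Fut9* was above *Fut1* in 12 of 12 libraries, and *Fut1* above *Fut2* in 9. *Fut8* and *B3gnt5* were thus above the other 7 genes in every library, and *Fut9*, *Fut1* and *Fut2* below the other 6.

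**Figure D1:**
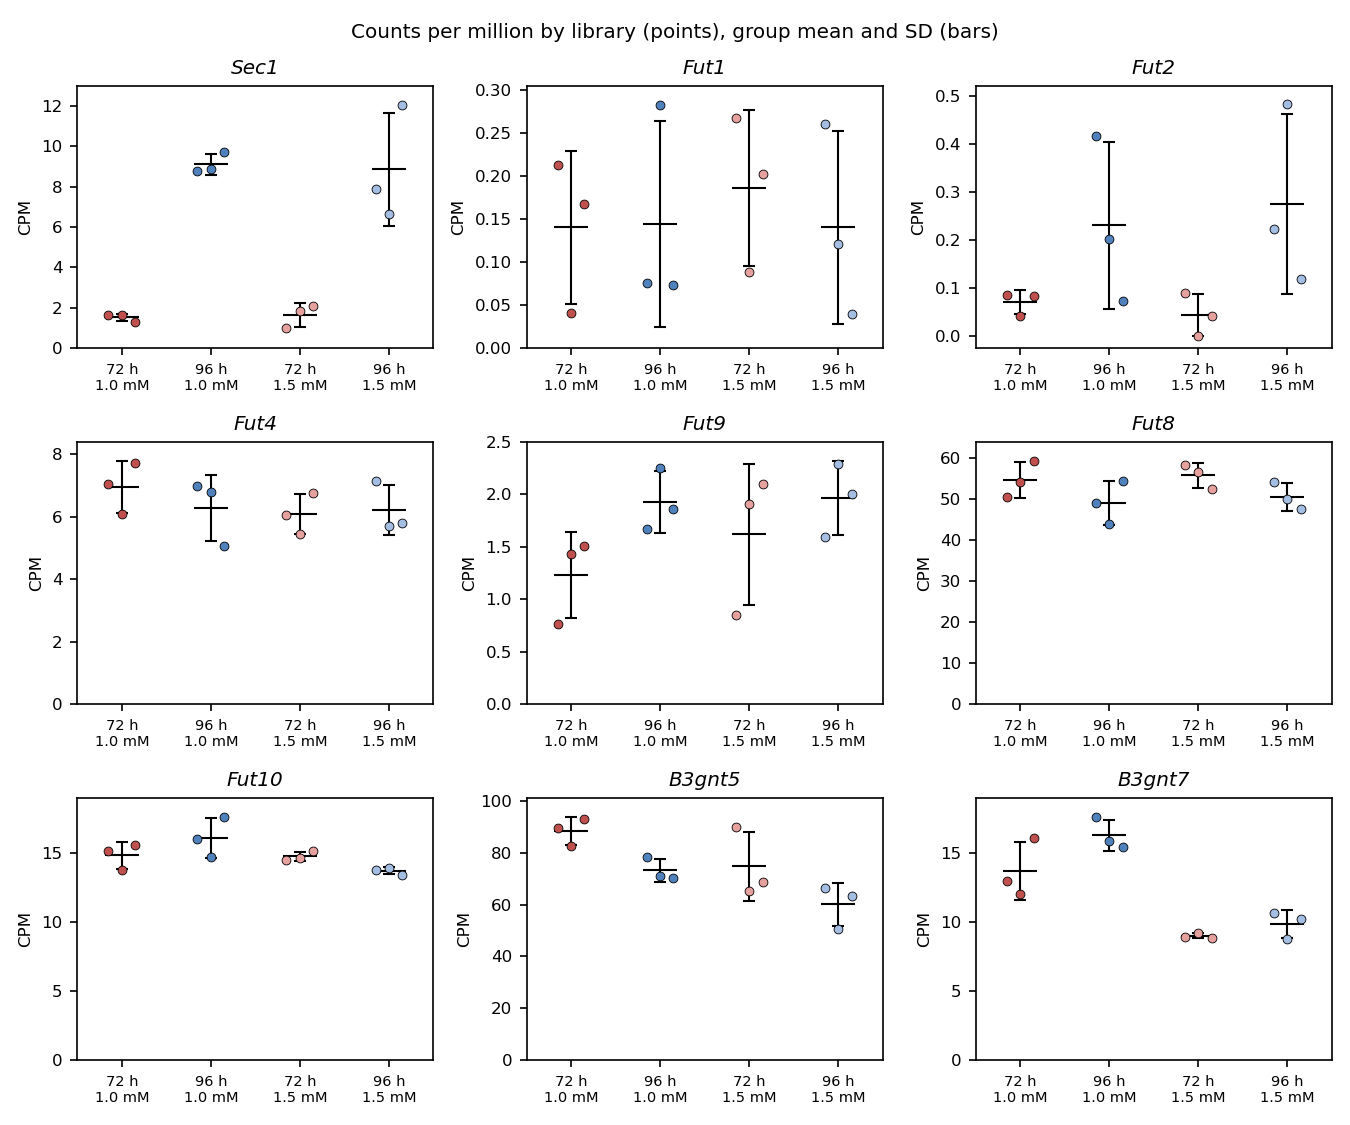
CPM of each of the 9 genes (vertical axis, own scale per panel) in the 4 groups of embedding time and gel concentration, with a point per library and bars for the group mean and SD. *Sec1* lies between 0.981 and 2.10 CPM in the 6 libraries embedded at 72 h and between 6.64 and 12.0 CPM in the 6 embedded at 96 h, and the points of *B3gnt7* do not overlap between gels at either time.

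*Sec1* showed the largest difference with embedding time among the 7 genes tested, and was lower in gastruloids embedded at 72 h in both gels. The 3 libraries of 1.0 mM gels held 38, 40 and 31 counts when embedded at 72 h, and 231, 220 and 266 counts when embedded at 96 h. For the 1.5 mM gels the counts were 22, 41 and 52 at 72 h, and 212, 165 and 306 at 96 h. The 6 libraries of each embedding time did not overlap. The mean of the early embedded 1.0 mM group was 1.51 ± 0.191 CPM (SD, n = 3) and that of the late one 9.11 ± 0.524 CPM, which is 6.02-fold lower at 72 h, or -2.59 (SE 0.18) as a log2 fold change. The 1.5 mM groups stood at 1.63 ± 0.583 CPM and 8.85 ± 2.82 CPM, which is 5.38-fold lower at 72 h, or -2.43 (SE 0.30). *Sec1* was past both thresholds used for differential expression (DE, edgeR adjusted p below 0.05 and absolute log2 fold change above 1) in both gels.

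*Sec1* was the only 1 of the 7 genes with enough counts to be tested that was past both thresholds in 1.0 mM gels, where 4.3% of all 15763 genes tested were DE. The same count, 1 of 7, held in 1.5 mM gels, where 3.18% of 15683 genes were DE. *Fut1* and *Fut2* did not pass the filter on low counts in any comparison. Over both gels the log2 fold change of *Sec1* was -2.51 (SE 0.18), and 4.66% of 16388 genes were DE. The gels differed little in this value. The difference between them, the interaction term, was 0.17 (SE 0.37) on the log2 scale for *Sec1*. None of the 7 genes was past the thresholds for the interaction, nor was any gene by edgeR's test (0% of 16388 genes, with 708 at an unadjusted p below 0.05, and by DESeq2 0 with both thresholds and 2 with adjusted p alone). With edgeR 4 genes passed both thresholds for the interaction with replicate number as a block, and 112 without the filter on low counts.

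*Sec1* differed little between gels. The difference between 1.5 mM and 1.0 mM gels was 0.12 (SE 0.31) on the log2 scale at 72 h and -0.05 (SE 0.19) at 96 h, and the libraries of the gels overlapped at both times. On the authors' FPKM scale, which was computed with strand, *Sec1* stood at 0.327 to 0.584 FPKM at 72 h and 2.57 to 2.67 FPKM at 96 h in 1.0 mM gels. In 1.5 mM gels it stood at 0.245 to 0.520 FPKM and at 1.84 to 3.53 FPKM. The groups of embedding time did not overlap on this scale either.

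*Fut1*, the H antigen enzyme of the red cell lineage in humans, had 1 to 7 counts per library. Summed over both gels it had 23 counts at 72 h and 22 at 96 h, a ratio of 96 h over 72 h, per library total, of 0.870 (95% interval 0.462 to 1.63). *Fut2*, the secretor gene expressed in epithelia, had 2, 1 and 2 counts at 72 h and 11, 5 and 2 counts at 96 h in 1.0 mM gels. Those of the 1.5 mM gels were 2, 0 and 1 at 72 h, and 6, 12 and 3 at 96 h. Its summed counts were 8 at 72 h and 39 at 96 h, a ratio of 4.43 (95% interval 2.04 to 11). Within gels the ratio was 3.3 (interval 1.18 to 11.4) at 1.0 mM and 6.32 (interval 1.89 to 33.1) at 1.5 mM. These exact intervals cover counting error only. *Fut2* counts were thus few, and lower at 72 h as those of *Sec1* were, while the depth could not show a difference for *Fut1*. Whether reads of *Sec1* that fit *Fut2* were counted for *Fut2* was not tested.

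**Figure D2:**
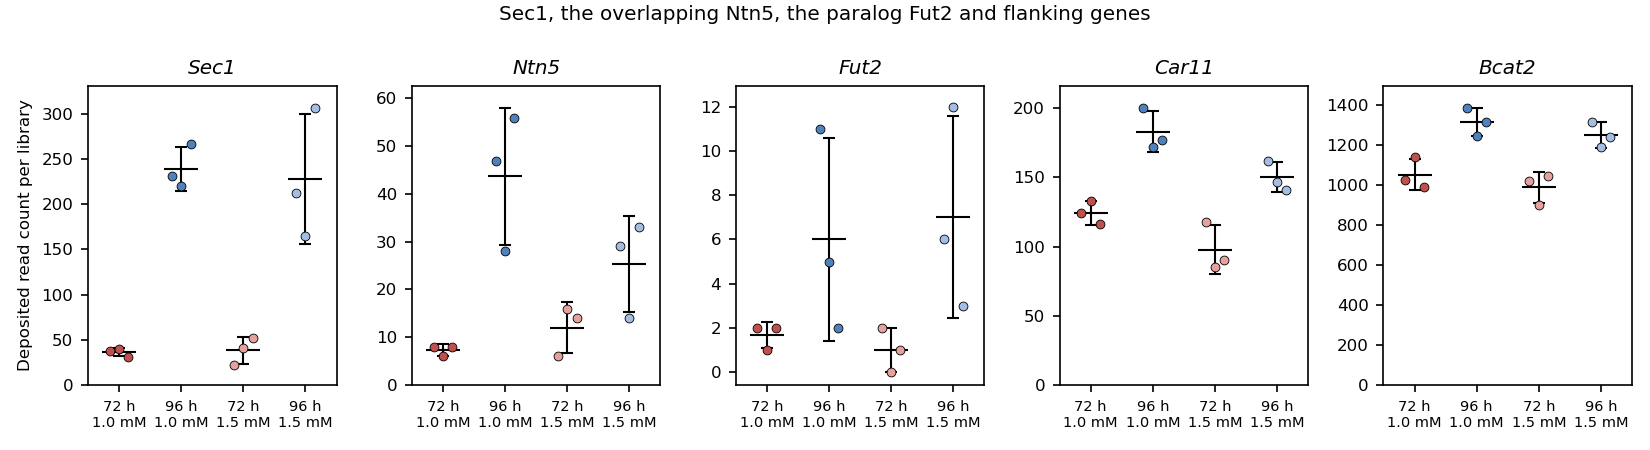
Deposited read counts (vertical axis, own scale per panel) in the 4 groups for *Sec1*, the overlapping *Ntn5*, the paralog *Fut2*, and *Car11* and *Bcat2*, genes near the cluster, with a point per library and bars for the mean and SD. *Sec1* has 22 to 52 counts at 72 h and 165 to 306 at 96 h, and *Ntn5* and *Fut2* have lower mean counts at 72 h in each gel, with far fewer counts in all.

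*Ntn5*, the gene antisense to *Sec1*, had fewer counts. It had 8, 6 and 8 counts at 72 h and 47, 28 and 56 at 96 h in 1.0 mM gels, and fell by 2.42 (log2, SE 0.36, adjusted p = 0.00222 by edgeR). The counts of 1.5 mM gels were 6, 16 and 14 at 72 h and 29, 14 and 33 at 96 h, a log2 difference of -0.92 (SE 0.43, adjusted p = 0.159 by edgeR). At 1.5 mM the libraries of *Ntn5* overlapped, whereas those of *Sec1* did not. *Ntn5* was also lower at 72 h across both gels, by 1.65 (log2, SE 0.34, adjusted p = 0.00204 by edgeR). That value was past both thresholds and in the same direction as that of *Sec1*. On the stranded FPKM scale *Ntn5* did not follow its counts. In 1.0 mM gels it was listed at 0, 0.104 and 0.130 FPKM at 72 h and at 0, 0 and 0.707 FPKM at 96 h. In 1.5 mM gels it was listed at 0.101, 0.291 and 0.189 FPKM at 72 h and at 0 in all 3 libraries at 96 h, although these held 14 to 33 counts. Such zeros were not particular to *Ntn5*. The pathway genes *St3gal6*, with 283 to 438 counts, and *B3gnt4*, with 23 to 64 counts, were listed at 0 FPKM in every library. What gave the zeros was not tested. The strand setting used for the counts is not given in the sources used here, and without it reads of *Ntn5* and *Sec1* from their shared bases cannot be told apart. At most 56 counts per library were assigned to *Ntn5*, and up to 306 to *Sec1*.

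The genes beyond this pair differed less with embedding time. *Car11*, a member of the carbonic anhydrase family that lies next to *Sec1*, had a log2 fold change of -0.44 (SE 0.16) in 1.0 mM gels and -0.47 (SE 0.18) in 1.5 mM gels, neither past the threshold. Across both gels *Car11* fell by 0.45 (log2, SE 0.11, adjusted p = 0.00550 by edgeR). *Bcat2*, a branched-chain aminotransferase gene on the far side of *Fut1*, fell by 0.20 (SE 0.05, adjusted p = 0.00870 by edgeR) across both gels. *Mamstr*, a transcriptional coactivator gene next to *Fut2*, stood at -0.12 (SE 0.19, adjusted p = 0.643 by edgeR).

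The sequence before the start of *Sec1* is printed because *Sec1* carries the largest difference among the 7 genes tested. RefSeq promoter windows (GRCm38.p6, from 250 bases before to 50 after the start) matched 6 of the 9 genes, with none for *Fut2*, *Fut9* and *Fut10*. Only the part of the *Sec1* window outside the last exon of *Ntn5* is shown, at chr7:45694557-45694652 on the minus strand. *B3gnt7*, of these 7 the gene with the largest value between gels, is shown with the 250 bases before its start at chr1:86302971-86303220, on the plus strand. Capitals mark matches to the motifs searched on both strands.
Sec1 upstream: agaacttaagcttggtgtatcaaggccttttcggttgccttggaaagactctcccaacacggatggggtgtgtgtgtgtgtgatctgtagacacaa
B3gnt7 upstream: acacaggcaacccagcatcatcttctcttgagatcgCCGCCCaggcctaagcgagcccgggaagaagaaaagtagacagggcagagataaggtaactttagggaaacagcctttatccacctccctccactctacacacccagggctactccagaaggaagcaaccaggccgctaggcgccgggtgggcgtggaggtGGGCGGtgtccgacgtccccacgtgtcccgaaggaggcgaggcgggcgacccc
The motifs were CTTTGAT (TCF/LEF), AGGTGTGA (a T-box element), TTTATG (CDX) and GGGCGG (GC box), and none overlapped another. The whole window of *Sec1* held 1 match to AGGTGTGA, on the opposite strand and from position -13 relative to the start, a motif found in 1.28% of the 32851 windows in the table. That match lies within the last exon of *Ntn5* and so is not among the bases printed. The window of *B3gnt7* held 2 matches to GGGCGG, a motif in 35.7% of all windows. Neither window held CTTTGAT, found in 3.73% of windows, or TTTATG, found in 11.9%. These matches describe letters in a window and not binding.

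*Fut4*, a Lewis X fucosyltransferase gene on chr9:14748320-14752393, varied little between groups. In 1.0 mM gels its mean level was 6.95 ± 0.820 CPM when embedded at 72 h and 6.29 ± 1.05 CPM when embedded at 96 h, and the corresponding values of 1.5 mM gels were 6.09 ± 0.646 CPM and 6.22 ± 0.791 CPM (SD, n = 3 each). The log2 fold change of 72 h over 96 h was 0.14 (SE 0.18) in 1.0 mM gels and -0.03 (SE 0.16) in 1.5 mM gels. Between gels it was -0.19 (SE 0.17) at 72 h and -0.02 (SE 0.17) at 96 h. In each of the 4 comparisons the libraries overlapped.

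*Fut9*, the other Lewis X gene, spans chr4:25609332-25800244 and was read at low counts. It had 18, 35 and 36 counts at 72 h and 44, 56 and 51 at 96 h in 1.0 mM gels. For 1.5 mM gels the counts were 19, 43 and 52 at 72 h and 43, 57 and 51 at 96 h. The libraries of the groups did not overlap at 1.0 mM and overlapped at 1.5 mM, and the first replicate embedded at 72 h was lowest in each gel. The log2 fold change was -0.64 (SE 0.30) in 1.0 mM gels and -0.27 (SE 0.33) in 1.5 mM gels, short of the thresholds in both. Without those first replicates the values were -0.40 and 0.03. On the scale of the authors' FPKM, the first replicate at 72 h in 1.0 mM gels had 0.0833 FPKM from 18 counts and the second 0.0901 FPKM from 35 counts, so the counts and the FPKM differed in how far that library lay from the others.

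*Fut8*, the core fucosyltransferase gene at chr12:77238125-77476338, had 1087 to 1489 counts per library. In 1.0 mM gels its mean was 54.5 ± 4.34 CPM for the early and 49.0 ± 5.32 CPM for the late embedding. The means of 1.5 mM gels were 55.7 ± 3.07 CPM and 50.5 ± 3.40 CPM. The log2 fold change was 0.15 (SE 0.10) and 0.14 (SE 0.08) in favour of 72 h, within the spread of overlapping libraries. Between gels it was 0.03 at both embedding times, with an SE of 0.09. *Fut8* overlaps the start of *9530018F02Rik*, which had 28 to 53 counts per library.

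*Fut10* (chr8:31187331-31261738) had 325 to 482 counts per library. Its counts at 72 h were 357, 337 and 374 in 1.0 mM gels and 325, 331 and 375 in 1.5 mM gels. At 96 h they were 422, 366 and 482 in 1.0 mM gels and 372, 346 and 342 in 1.5 mM gels. In CPM the highest group was 96 h in 1.0 mM gels, at 16.1 ± 1.44 CPM, and the lowest 96 h in 1.5 mM gels, at 13.7 ± 0.257 CPM, which did not overlap. The difference between those gels was -0.24 (SE 0.11) on the log2 scale, while at 72 h it was -0.003 (SE 0.12). The difference with embedding time was -0.12 (SE 0.12) in 1.0 mM gels and 0.10 (SE 0.09) in 1.5 mM gels, and in the latter the libraries did not overlap. None of these values was past a threshold.

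**Figure D3:**
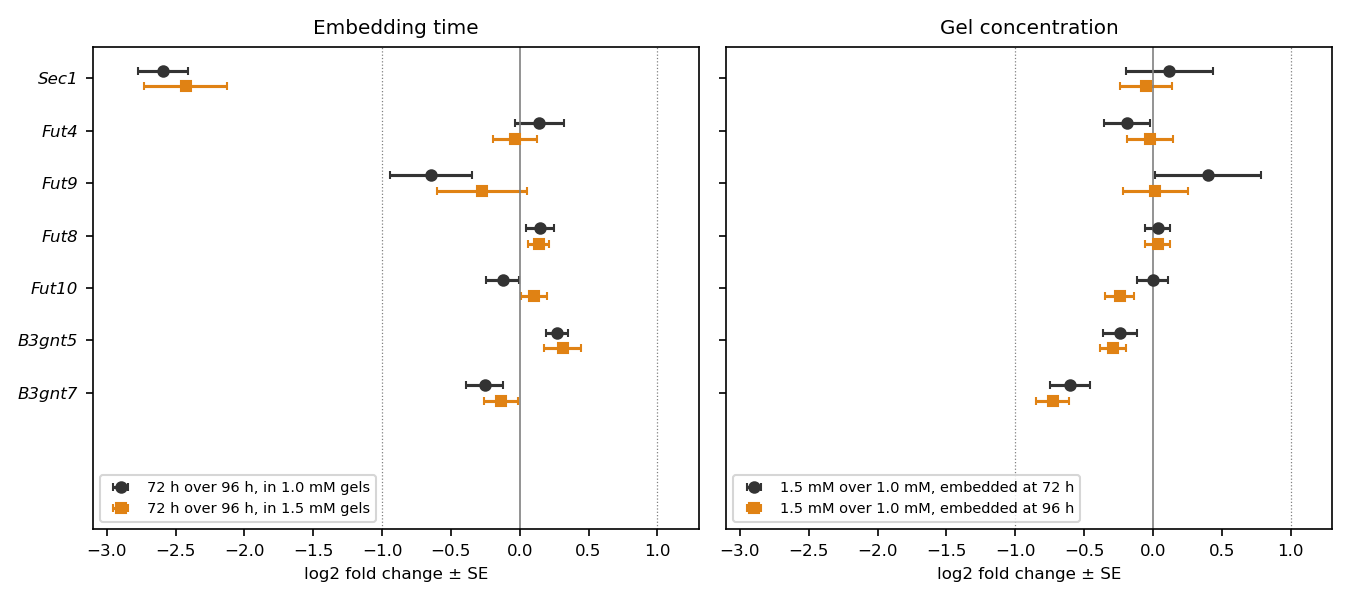
Log2 fold change with its SE for the 7 genes tested, for embedding time (left, 72 h over 96 h) and gel concentration (right, 1.5 mM over 1.0 mM). Dotted lines mark the fold threshold of 1, which *Sec1* passes at -2.59 and -2.43, and *B3gnt7* stands at -0.60 and -0.73 between gels.

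*B3gnt5*, which starts lacto-series glycolipids (chr16:19760208-19772753), was the second gene past the adjusted p threshold with embedding time. It had 2111, 2024 and 2229 counts at 72 h and 2062, 1763 and 1927 at 96 h in 1.0 mM gels. The counts of 1.5 mM gels were 2023, 1473 and 1703 at 72 h and 1790, 1261 and 1610 at 96 h. Scaled to depth, the groups of embedding time did not overlap at 1.0 mM, and overlapped at 1.5 mM, where the first replicate at 72 h was well above the other two. The 1.0 mM groups stood at 88.5 ± 5.25 CPM and 73.2 ± 4.39 CPM, a log2 difference of 0.27 (SE 0.08), and the 1.5 mM groups at 74.8 ± 13.4 CPM and 60.2 ± 8.31 CPM, a log2 difference of 0.31 (SE 0.14). Across both gels *B3gnt5* was 0.29 higher at 72 h on the log2 scale (SE 0.08), past the adjusted p threshold but not the fold threshold. It was with *Sec1* 1 of 2 genes past that threshold alone, where 31.1% of all genes tested were.

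Within single gels *Sec1* alone was past the adjusted p threshold, which 9.24% of genes passed in 1.0 mM gels and 19.3% in 1.5 mM gels. In 1.5 mM gels same-numbered libraries deviated together from their group means, a hint of pairing that the labels do not explain. A fit there with replicate number as a block also placed *B3gnt5* past the adjusted p threshold. In that fit 2 of the 7 genes passed, beside 24.8% of all genes tested. Without overlap between embedding times were *Sec1*, *Fut9* and *B3gnt5* in 1.0 mM gels, where 28% of all genes tested did not overlap. At 1.5 mM they were *Sec1* and *Fut10*, where 39.5% of all genes did not.

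*B3gnt7* (chr1:86303234-86307305), which lengthens lactosamine chains, had the largest values between gels among the 7 genes tested, short of the thresholds of the main edgeR fit. At 72 h it had 305, 294 and 384 counts in 1.0 mM gels and 200, 207 and 219 in 1.5 mM gels. At 96 h it had 462, 393 and 422 counts in 1.0 mM gels and 287, 217 and 259 in 1.5 mM gels. The gels did not overlap at either time. The level was 13.7 ± 2.10 CPM against 8.98 ± 0.177 CPM at 72 h, and 16.3 ± 1.13 CPM against 9.86 ± 1.00 CPM at 96 h (SD, n = 3). The 1.5 mM gels were thus 1.52-fold lower at 72 h (log2 fold change -0.60, SE 0.15) and 1.66-fold lower at 96 h (-0.73, SE 0.12). With embedding time it varied less, by -0.25 (SE 0.14) in 1.0 mM gels and -0.14 (SE 0.12) in 1.5 mM gels.

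*B3gnt7* was not past a threshold of the main edgeR fit in either comparison of gels, and neither was any other gene of the 9. At 72 h 0% of 15563 genes passed, with 1074 at an unadjusted p below 0.05, and DESeq2 called 2 genes with both thresholds and 12 with adjusted p alone. With edgeR those counts were 16 and 43 with replicate number as a block, and 56 and 322 without the filter on low counts. At 96 h 0% of 15861 genes passed, with 1578 at an unadjusted p below 0.05, and DESeq2 called 10 genes with both thresholds and 96 with adjusted p alone. *B3gnt7* was among those 96. The edgeR counts at 96 h were 51 and 289 with the block, and 65 and 333 without the filter. *B3gnt7* and *B3gnt5* were among the 289 genes of the block fit, which were 1.82% of those tested. At 72 h *B3gnt7* was past the adjusted p threshold in 1 of 13 alternatives. Of the 7 genes tested, *B3gnt7* did not overlap between gels at 72 h, where 11% of all genes did not. At 96 h *B3gnt7*, *B3gnt5* and *Fut10* did not overlap, where 15.1% of all genes did not. *B3gnt5* was 74.8 against 88.5 CPM at 72 h and 60.2 against 73.2 CPM at 96 h, which gave log2 differences of -0.24 (SE 0.12) and -0.29 (SE 0.10).

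Both comparisons of gels and both of embedding time use the same 4 groups, so their values are not independent of each other. With this in mind the pattern can be read gene by gene. Across both gels *Sec1* and *B3gnt5* were past the adjusted p threshold with embedding time, in opposite directions. The values of *B3gnt5* and *B3gnt7* between gels, and those of *Fut4* and *Fut8* throughout, were short of the thresholds of the main edgeR fits. With replicate number as a block *B3gnt5* and *B3gnt7* were past adjusted p alone between gels at 96 h. That a difference missed the thresholds does not show that the levels were alike.

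The rest of the pathway was read from 7 lists of 49 other genes, of which 44 were tested. In 1.0 mM gels 1 of the 44 was DE and higher at 72 h and none was DE and lower. Among all genes tested there 4.3% were DE. The DE gene of the 44 was *B3gnt8*, which also extends lactosamine chains. *B3gnt8* had 111, 61 and 63 counts at 72 h and 31, 20 and 23 at 96 h, a rise of 1.79 (log2, SE 0.32, adjusted p = 0.00509 by edgeR). The 1.5 mM gels held 62, 41 and 65 counts at 72 h and 31, 42 and 24 at 96 h, 0.93 higher (SE 0.28, adjusted p = 0.0486 by edgeR) and short of the fold threshold. Across both gels it rose by 1.35 (SE 0.24, adjusted p = 7.32e-04 by edgeR). It was the only 1 of 44 that was DE there, where 4.66% of all genes tested were. *B3gnt8* and *Sec1* thus moved in opposite directions with embedding time.

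The lists were also counted by adjusted p alone. By that measure 4 of 44 genes were higher and 2 lower at 72 h in 1.0 mM gels, where 9.24% of all genes tested passed. In 1.5 mM gels 3 were higher and none lower, where 19.3% of all genes passed. There a fit with replicate number as a block gave 5 higher and 2 lower, beside 24.8% of all genes. Across both gels 12 were higher and 4 lower, 16 of 44, where 31.1% of all genes tested passed. Of the 13 tested lactosamine chain enzymes 5 were higher, among them *B4galt6*, a galactosyltransferase, by 0.55 (SE 0.10, adjusted p = 6.82e-04 by edgeR), and 1 was lower. Of 8 glycolipid core enzymes 2 were higher and 1 lower, with *B3galnt1*, the globoside synthase, 0.47 higher (SE 0.09, adjusted p = 0.00106 by edgeR). Of 6 capping sialyltransferases 2 were higher and 1 lower, the lower being *St3gal1*, which caps core O-glycans, at -0.50 (SE 0.09, adjusted p = 0.00108 by edgeR).

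Few genes passed in the remaining lists. Among 6 genes of GDP-fucose supply none was higher and 1 lower across both gels, *Slc35c2*, a nucleotide sugar transporter family gene, at -0.18 (SE 0.07, adjusted p = 0.0460 by edgeR). Of 3 other fucosyltransferases tested 1 was higher, *Fut11*, by 0.19 (SE 0.06, adjusted p = 0.0270 by edgeR). Of 6 N-glycan core and branching enzymes 2 were higher, with *Mgat2*, which starts the second antenna, 0.16 higher (SE 0.05, adjusted p = 0.0198 by edgeR). Neither of the 2 fucosidases passed, and *Fuca2* had the smaller p (0.15, SE 0.07, adjusted p = 0.128 by edgeR). The median log2 fold change over the 44 genes across both gels was 0.08, beside -0.01 over all genes tested. Between gels none of the 44 genes passed at either time, and none passed for the interaction.

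**Figure D4:**
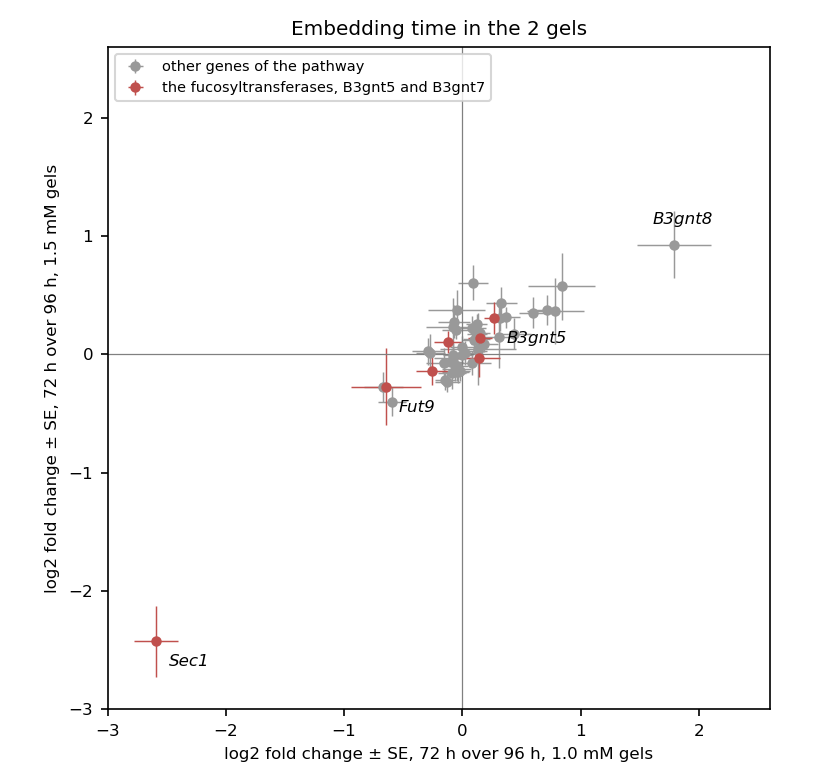
Log2 fold change of 72 h over 96 h in 1.0 mM gels (horizontal axis) against that in 1.5 mM gels (vertical axis), with SE bars, for the 7 genes tested (red) and 44 other genes of the pathway (grey). *Sec1* lies apart at -2.59 and -2.43 and *B3gnt8* at 1.79 and 0.93, while most of the other genes lie near 0.

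The genes whose log2 CPM followed *Sec1* most closely over the 12 libraries were *Fap*, a fibroblast serine protease (Pearson's r = 0.988), *Cux2*, a homeobox gene (r = 0.985), and *Psd2* (r = 0.983). Within groups, with group means removed, r was 0.828, 0.944 and 0.735. *B3gnt7* was followed by *Zfand2a* (r = 0.931), *Thbs1*, a matrix glycoprotein (r = 0.921), and *Cdx2*, a homeobox gene of the posterior embryo (r = 0.909). Within groups r was 0.734, 0.444 and 0.812. *B3gnt5* was followed by *Xbp1*, a factor of the unfolded protein response, with r = 0.947 and 0.903 within groups. The libraries share the same 4 groups and the genes were taken as the closest of all genes tested, so these values describe likeness only.

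Some markers of cell types also differed with embedding time, in both directions, as *Sec1*, *B3gnt5* and *B3gnt8* did. The summed level of 8 pluripotency markers was 40.1 to 61.4 CPM at 72 h and 110 to 150 CPM at 96 h in 1.0 mM gels. For 1.5 mM gels it was 39.9 to 49.4 CPM and 88.9 to 106 CPM, and 5 of the 8 markers were DE and lower at 72 h in each gel. Of the other 3, *Tdgf1* was higher at 72 h across both gels, by 0.74 (SE 0.25, adjusted p = 0.0335 by edgeR), and *Klf4* and *Tfcp2l1* did not pass. Over all genes tested, 4.3% were DE in 1.0 mM gels and 3.18% in 1.5 mM gels. The 6 presomitic and somitic markers summed to 224 to 390 CPM at 72 h and 713 to 830 CPM at 96 h in 1.0 mM gels, and to 274 to 416 CPM and 578 to 761 CPM in 1.5 mM gels. In each gel 4 of the 5 tested were lower at 72 h by adjusted p. That threshold was passed by 9.24% of all genes tested in 1.0 mM gels and 19.3% in 1.5 mM gels. *Tbx6* did not pass, and *Msgn1* had too few counts to be tested. The 6 cardiac and anterior mesoderm markers summed to 426 to 751 CPM at 72 h and 56.8 to 161 CPM at 96 h in 1.0 mM gels, where 6 of 6 were DE and higher with early embedding. In 1.5 mM gels the sums were 340 to 633 CPM and 164 to 304 CPM, with 3 of 6 DE and 5 of 6 past adjusted p alone, the exception being *Hand1*. The 7 endoderm and epithelium markers summed to 502 to 587 CPM at 72 h and 349 to 385 CPM at 96 h in 1.0 mM gels, and to 369 to 475 CPM and 280 to 368 CPM in 1.5 mM gels. In each gel 3 of the 7 were higher by adjusted p, the keratin genes *Krt8* and *Krt18* and the endoderm factor *Foxa2*, and *Sox17* was lower in 1.5 mM gels. The remaining lists went both ways across both gels by adjusted p alone, which 31.1% of all genes tested passed. Of 6 germ-cell-like markers 1 was higher and 3 lower at 72 h, and of 5 tail bud and neuromesodermal markers 1 and 2. Of 6 neural markers 3 were higher and 2 lower, and of 5 endothelial markers 1 and 2. The part of cell type make-up in the differences of *Sec1*, *B3gnt5* and *B3gnt8* was not tested.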

How the data were processed

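RNA of gastruloids was selected for poly-A, sequenced as stranded paired-end reads of 75 bases, and processed by the authors, who trimmed reads with cutadapt 4.4 and aligned them to mm10 with STAR 2.7.10b and a customized Ensembl annotation. The deposited counts are raw read counts per gene, without normalization, and the strand setting is not given in the sources used here. The deposited FPKM values were computed by the authors with Cufflinks 2.2.1.3, with strand and correction for multiply mapped reads. The authors' own table of DESeq2 comparisons, with their log2 fold changes and adjusted p-values, was not used.

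Counts were fitted with edgeR 4.0.16 (R 4.3.3, glmQLFit and glmQLFTest), with TMM scaling, the filterByExpr filter (count of 10, total of 15, groups as labelled) and all 36 mitochondrial genes left out. p-values were adjusted by Benjamini-Hochberg over all genes tested. SE values are those of the log2 fold change, derived from the F statistic. Each pairwise comparison used the 6 libraries of its groups, while embedding time across both gels and the interaction used all 12. Positive values are 72 h over 96 h, or 1.5 mM over 1.0 mM. Alternatives were RLE scaling, DESeq2 1.42.0, limma 3.58.1 on log2(FPKM + 1), no filter, no fold threshold, a replicate block, a single fit and each library left out. Sequences came from RefSeq promoter windows (GRCm38.p6) and GENCODE M21 transcripts of the same build, which is not the annotation of the authors, with Biopython 1.88 for alignment.

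The genes and lists were chosen with earlier results of these data known. All 9 genes are named. Of the 7 pathway lists, genes past both thresholds in either gel are named and otherwise that with the smallest adjusted p across both gels. Genes next to or overlapping the H antigen cluster and the 3 genes most alike to a gene by correlation of log2 CPM could also be named. Same-numbered libraries in 1.5 mM gels deviated together from their group means between embedding times (r = 0.195, 0.103 and 0.215). This is a hint, and no more, that the replicate number pairs them there. In 1.0 mM gels r was also positive for same numbers (0.331, 0.148 and 0.0535). Replicate 3 at 72 h there correlated better with replicate 2 at 96 h (r = 0.115). Between gels r was 0.165, 0.192 and 0.0666 at 72 h, where each library correlated best with its own number. At 96 h it was 0.317, 0.116 and 0.0453. Replicate 3 of 1.5 mM gels there correlated better with replicate 2 of 1.0 mM gels (r = 0.112). The labels do not say what a shared number means, and the main fits did not use it. The study's methods call all replicates biological, while the labels name no separate cultures, so p-values measure the spread between these samples. At 23011791 to 27609422 counts per library, depth limits *Fut1* and *Fut2* above all.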

Additional observations from a re-analysis of the deposited data

How the results depend on the processing

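The count of the 9 genes that were DE stayed at 1 in each single gel, and at 0 for both comparisons of gels and for the interaction, under all alternatives, with *Sec1* past both thresholds with embedding time in every one. Across both gels the count was 2 without the filter on low counts and without the fold threshold, and 1 to 2 with a library left out. Without the filter the second gene was *Fut2*, with a log2 fold change of -2.06 (SE 0.62), and without the fold threshold it was *B3gnt5*. With a library left out the second gene was *Fut2*. It passed the filter there only when its libraries of 11 and 12 counts, both embedded at 96 h, were kept. The filter thus let *Fut2* in through the embedding time where it was higher, and its calls with a library left out are no separate evidence. *B3gnt5* across both gels missed the adjusted p threshold with limma on log2(FPKM + 1). On that scale, where low levels are compressed, the log2 fold change of *Sec1* was -1.31 in 1.0 mM gels, -1.33 in 1.5 mM gels and -1.32 across both, and that of *Fut9* in 1.0 mM gels was -0.05. Of the other pathway genes, 0 were DE with limma in 1.0 mM gels, where limma called 63 of all 15763 genes. Without the fold threshold 6 pathway genes were called in 1.0 mM gels, 3 in 1.5 mM gels and 16 across both gels. The shares of all genes tested were then 9.24%, 19.3% and 31.1%. With the replicate block the count of the 9 genes that were DE was 1 in each single gel and across both gels, and 0 elsewhere, so the block fit changed no such call. At adjusted p alone it placed 2 of the 9 past the threshold in 1.0 mM gels (13.5% of all genes), 3 across both gels (36.3%), and 2 between gels at 96 h, *B3gnt7* and *B3gnt5* (1.82%). Whether every library correlates best with its own number is no more than a hint, and it did not hold in 1.0 mM gels or between gels at 96 h. The cause of the differences between edgeR and DESeq2 in the comparisons of gels was not tested. The filter on low counts removed *Fut1* and *Fut2*. Without it *Fut2* stood at -1.66 (SE 0.89) in 1.0 mM and -2.53 (SE 0.94) in 1.5 mM gels, past no threshold of adjusted p.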
